A study of Mus musculus with 20 samples.

Results

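Gene expression in the frontal cortex after rest was compared with that at the end of chronic social stress. The 13 days group held mice stressed for 13 days and killed 24 h after the last encounter, and the recovery group held mice given the same 13 days of stress and then 5 days without it. In each group, RNA of stressed mice was hybridised against RNA of control mice of the same time point, so that each value is a log2 ratio of stress over control. The comparison is the difference of these ratios, recovery minus 13 days, and it rests on 3 pools in each group out of 12 pools at 4 time points. Below 0, the difference means a lower stress over control ratio after rest than at the end of stress. Members were all probes well above background in at least 1 channel on each of the 10 arrays of both groups, which gave 26299 of 39429 probes. With 1 probe kept for each, they stand for 20109 of 30415 genes or named transcripts.

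All mice were male Swiss Webster mice, single housed from the age of 12 weeks and habituated for 22 days. A stressed mouse was placed as an intruder in a cage of group-housed males, and the controls were left undisturbed in a room of their own. Each pool held equal amounts of RNA from 3 mice, taken from a 1 mm slice with orbital, prelimbic and frontal association cortex, and siblings of the stressed mice made up the control pool on the same array. Pools 2 and 3 of each group were measured with both dye orientations, and pool 1 was measured here on 1 array with stress in Cy5. The 13 days and recovery groups had this same dye layout, so that a dye effect equal in both is absent from the difference. Within either group, the stress over control ratios of pool 1 can still hold a dye effect, since they come from 1 orientation. Every slide carried 1 array of each group, at a position that was the same for a group on all 5 slides, so slide position and time point cannot be told apart. The groups were different mice with different controls, and the stressed and control mice of a group lived in separate rooms.

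The frontal cortex takes part in the control of behaviour and of the stress hormone axis. Stress hormones and neuronal activity switch on sets of genes there within minutes to hours, among them immediate early genes and the Period genes of the circadian clock. A slice of brain also holds blood, vessels and meninges, and young red blood cells still carry the mRNA of hemoglobin, whose alpha and beta chains bind oxygen together with heme. Markers of cortical cell types were measured in these samples. Of 12 markers of excitatory neurons and cortical layers 11 were members, as were 14 of 14 of interneurons and neuropeptides, 11 of 11 of astrocytes and 11 of 11 of microglia. Markers of the olfactory bulb were measured too, with 11 of 12 as members, and so were those of meninges and vessel fibroblasts, with 21 of 21.

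Over all 39429 probes, the difference between recovery and 13 days passed the test for 0 probes (0%; limma, adjusted p under 0.05 and a log2 difference over 0.5). Without adjustment, 1947 probes had a p under 0.05, and 1057 of them were lower and 890 higher in recovery. The lowest adjusted p was 0.168. A fit with the 10 arrays of both groups among all 20, in which the slide was a block and the pool a random effect, called 6 probes (0.0152%), and all 6 were lower in recovery on 5 of 5 slides. They were Mgp, Hbb-b2, Hbb-b1, Hba-a1 and both probes of Dbp. Slides 2 and 3 held the same pools in both dye orientations, as did slides 4 and 5. The 5 slides thus stand for 3 pairs of pools. With the replicate number as a block in the fit over pools, 2 probes passed, Mgp and Beta-s. The fit over arrays, which called 6 probes, had a correlation within pools of 0.0488. It thus counted the arrays of a dye swap nearly as separate samples, which lowers its p-values. Against 0, the 13 days group had 9 called probes (0.0228%) and the recovery group had 0 (0%), with 1402 at an unadjusted p under 0.05 in recovery. Without 13-day pool 1 or pool 2, 0 probes passed at 13 days, and 15 passed without pool 3. In the authors' value table, or with the 6 pools alone, 0 passed. Without 13-day pool 3, 1 probe, Beta-s, passed in the difference (-1.52, adjusted p = 0.0153). The median SE of the difference was 0.0746, and among 25 probes simulated with a difference of 0.5, 9 were called. The simulated data also held larger differences, which loosen the adjusted threshold, so this count can overstate what the real contrast could call.

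**Figure D1:**
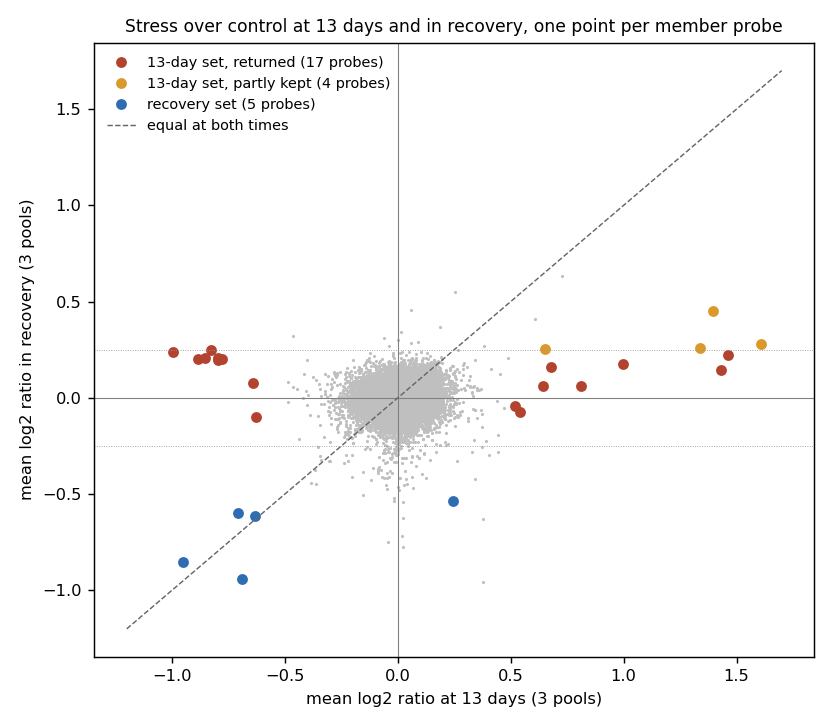
Mean log2 ratio of stress over control at 13 days (horizontal axis) and in recovery (vertical axis) for the 26299 member probes, each over 3 pools. Coloured points are the 21 probes over 0.5 in size and of 1 sign in all pools at 13 days, split into 17 that returned and 4 partly kept, and the 5 probes that meet the same rule in recovery. Dotted lines mark 0.25 and the dashed line equal values, and the 21 probes lie far from the dashed line, near the horizontal axis.

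Changes were sorted by size to say which reversed, persisted or appeared. At 13 days, 21 member probes had a mean log2 ratio over 0.5 in size with 1 sign in 3 of 3 pools, 12 of them higher and 9 lower in stressed mice. In recovery, 17 of the 21 (81.0%) had returned to within 0.25 of 0, 8 of the higher and 9 of the lower. The remaining 4 (19.0%), Hba-a1, Hba-a2, Hbb-b1 and 1500015O10Rik, were partly kept, with the same sign and a size over 0.25. No probe persisted at over 0.5 with 1 sign in all pools (0 of 21), and 0 turned to a size over 0.25 of the opposite sign. Both zeros depended on single pools. Without recovery pool 3, 4 persisted and 3 turned, and without recovery pool 1, 7 turned. Leaving out 13-day pool 2 gave 4 that persisted and 2 that turned. In these cases the sign in the group without a pool was asked of 2 pools. A set picked on its 13-day values lies nearer 0 at any other time by the choice alone, so these counts are a description and carry no test. Without 13-day pool 2 the set held 48 probes and without pool 3 it held 36, of which 30 returned in either case, and without recovery pool 3 the count that returned was 10 of 21. The plot of the means of both groups shows this as a band of points along the horizontal axis.

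The edges of the set were close to other genes. Just inside lay Ifi27l2a, an interferon-induced gene, at 0.52, and just outside lay Taf1, a subunit of the general transcription factor TFIID, at -0.49. In the same way, 5 probes met the rule in recovery, all lower in stressed mice. Without recovery pool 2 there were 20 and without recovery pool 3 there were 35, with the sign asked of 2 pools. Just inside lay Chmp4b at -0.54, and just outside lay Tcf25 at -0.48. Applied with each time point's own filter on signal, the rule gave 22 probes for 13 days and 6 for recovery, and it gave 20 for acute stress and 13 for 8 days. With the size set at 0.3, the 13-day set held 83 probes, of which 72 returned, 4 were partly kept, 2 persisted and 5 turned, while the recovery set held 40, of which 28 were within 0.25 of 0 at 13 days.

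Hemoglobin genes had the largest differences among the 12 higher probes of the 13-day set. Hbb-b1, named Hbb-bt in RefSeq, encodes a beta chain and is detected by a probe at chr7:110961105-110961164 (mm9). Its log2 ratios were 1.46, 1.91 and 1.45 in pools 1 to 3 at 13 days, and 0.54, 0.79 and -0.49 in recovery. Every 13-day pool lay above every recovery pool, and recovery pool 3 alone was below 0. The difference was -1.33 (SE 0.27, n = 3 pools a group, limma adjusted p = 0.589), so that a stress over control ratio of 3.05 at 13 days stood beside one of 1.21 in recovery. With the slide as a block, the difference was -1.40 (adjusted p = 0.00327), and it was below 0 on each of 5 slides, from -2.22 to -0.92.

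Hbb-b2, the adult minor beta chain, had 1.45, 1.69 and 1.24 at 13 days and 0.51, 0.61 and -0.46 in recovery. Its difference was -1.24 (SE 0.22, limma adjusted p = 0.416, 0.00101 with the slide as a block). Beta-s, a further beta chain gene named Hbb-bs in RefSeq, had 1.73, 1.60 and 0.97 at 13 days and 0.26, 0.41 and -0.23 in recovery. For this gene the difference was -1.29 (SE 0.18, adjusted p = 0.168), and the slide as a block gave an adjusted p of 0.0824. The 3 beta chain genes thus kept the same order of pools in recovery, with pool 2 highest and pool 3 below 0. In both groups the arrays of pool 3 were scanned on another day than those of pools 1 and 2, and a scan day lies within the slide block.

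The alpha chains were measured by probes to Hba-a1 and Hba-a2. Hba-a1 had 1.24, 1.54 and 1.24 at 13 days and 0.68, 0.57 and -0.47 in recovery, a difference of -1.08 (SE 0.23, limma adjusted p = 0.705, 0.0185 with the slide as a block). Hba-a2 had 1.29, 1.56 and 1.34 at 13 days and 0.89, 0.84 and -0.38 in recovery, a difference of -0.95 (SE 0.25, adjusted p = 0.960, 0.177 with the slide as a block). Both alpha chain probes stayed above 0.5 in recovery pools 1 and 2 and below 0 in pool 3. The probes of Hbb-b1 and Hbb-b2 did the same, while Beta-s lay under 0.5 in pools 1 and 2. Without recovery pool 3, Hba-a2 was called in recovery against 0, at 0.87 (adjusted p = 0.0155). The list of hemoglobin chains held 5 measured genes. Of these, 5 of 5 had a lower ratio in recovery at an unadjusted p under 0.05, against 3.62% of all genes. Their median difference was -1.24 against 0.0022 over all genes. The study had picked out hemoglobin on these same 13-day arrays, so the count is no independent evidence of a direction. The alpha chain genes share coding sequence, as do the beta chain genes, so the RNA bound by each probe is not certain to come from the named copy. Probes to an alpha and a beta chain are shown because the 2 families moved together although the 5 probes share runs of at most 7 bases.
Hba-a1 probe, chr11:32183955-32184014 (mm9): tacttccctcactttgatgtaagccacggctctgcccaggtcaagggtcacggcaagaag
Hbb-b2 probe: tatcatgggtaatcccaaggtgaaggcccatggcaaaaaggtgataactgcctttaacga

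Other red cell genes were examined beside hemoglobin. Alas2, the erythroid enzyme that starts heme synthesis, had 1.03, 1.33 and 0.63 at 13 days and 0.32, 0.32 and -0.11 in recovery, a difference of -0.82 (SE 0.16, limma adjusted p = 0.526). The unannotated transcript NAP026524-1, also called at 13 days, had 0.61, 0.92 and 0.50 at 13 days and 0.40, 0.22 and -0.14 in recovery. Of 16 red cell genes beyond hemoglobin, 8 were members. Among the 8, 2 had a lower ratio in recovery at an unadjusted p under 0.05, Alas2 and Isg20, against 3.62% of all genes. The study had picked out Alas2 on these same arrays. Isg20 is annotated as an interferon-stimulated protein, and had 0.27, 0.64 and 0.20 at 13 days and 0.17, 0.05 and -0.08 in recovery. Slc4a1, the anion exchanger of the red cell membrane, had 0.22, 0.54 and 0.26 at 13 days and 0.09, 0.54 and -0.04 in recovery, so that its groups overlapped. Median log2 ratios of the 8 genes were 0.22, 0.17 and 0.03 in the 13-day pools and 0.16, 0.05 and -0.05 in the recovery pools. Klf1, Rhag and Ahsp, markers of red cell precursors, were among the 8 that were not members. In pooled tissue, fewer cells of a type and less RNA per cell cannot be told apart, and the part of blood content in the hemoglobin differences was not tested.

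**Figure D2:**
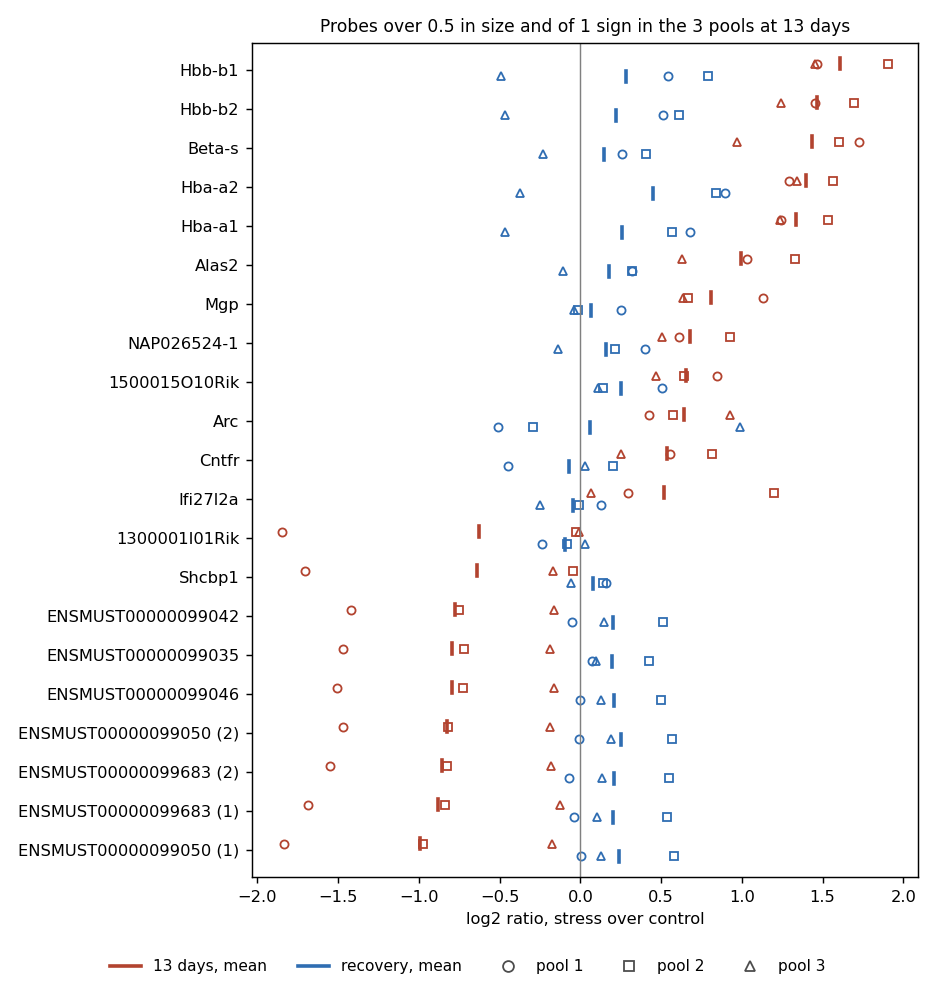
Log2 ratios of stress over control (horizontal axis) in each pool for the 21 member probes over 0.5 in size and of 1 sign at 13 days. Symbols are pools 1 to 3, bars are group means, red is 13 days and blue is recovery. Hemoglobin probes sit between 0.97 and 1.91 at 13 days, and their recovery values spread from -0.49 to 0.89, with pool 3 lowest.

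Mgp, the matrix Gla protein, an inhibitor of calcification made by vessel wall and connective tissue cells, had 1.13, 0.67 and 0.64 at 13 days and 0.25, -0.02 and -0.04 in recovery. The groups did not overlap, and the difference was -0.75 (SE 0.13, limma adjusted p = 0.416), or a ratio of 1.75 at 13 days beside 1.05 in recovery. In the fit with slides as blocks its adjusted p was 0.00101, and the difference lay between -0.88 and -0.49 on the 5 slides. Of the 21 measured markers of meninges and vessel fibroblasts, 2 had a lower ratio in recovery at an unadjusted p under 0.05, Mgp and Ogn, and 0 a higher one, against 3.62% and 3% of all genes. Ogn, a small proteoglycan, had 0.25, 0.27 and 0.24 at 13 days and 0.01, 0.03 and 0.12 in recovery. The collagen genes of this list overlapped between groups, with Col3a1 at 0.27, 0.25 and 0.24 and then 0.28, 0.03 and 0.03. Medians of the list were 0.26, 0.02 and -0.01 in the 13-day pools and 0.02, 0.03 and 0.04 in the recovery pools, and the part of meninges in the Mgp difference was not tested.

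1500015O10Rik, named Ecrg4 in RefSeq, encodes a secreted peptide precursor of choroid plexus and other epithelia. It had 0.85, 0.64 and 0.47 at 13 days and 0.51, 0.14 and 0.11 in recovery, a difference of -0.40 (SE 0.14, limma adjusted p = 0.995), with groups that overlapped. Its recovery mean of 0.25 lay just over the limit for a return. The 6 measured choroid plexus markers, which include this gene, had a median difference of -0.01.

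Lower members of the 13-day set were mainly transcripts of a family of predicted genes that the study describes as closely related. Probes for ENSMUST00000099035, ENSMUST00000099042, ENSMUST00000099046 and ENSMUST00000099050 lie on chromosome 9 and those for ENSMUST00000099683 on chromosome 2. For the brighter probe of ENSMUST00000099050, the log2 ratios were -1.47, -0.82 and -0.19 in pools 1 to 3 at 13 days, and -0.01, 0.56 and 0.19 in recovery. The difference was 1.08 (SE 0.26, limma adjusted p = 0.874, 0.184 with the slide as a block). ENSMUST00000099035 had -1.47, -0.72 and -0.19 at 13 days and 0.07, 0.42 and 0.10 in recovery, with a negative ratio in every 13-day pool and a positive one in every recovery pool.

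All 7 probes of the family behaved alike. Their differences ran from 0.98 to 1.23, none overlapped between groups, and all were higher in recovery on 5 of 5 slides. With 1 probe a transcript, 5 of 5 had a higher ratio in recovery at an unadjusted p under 0.05, against 3% of all genes. The study had picked out this family on these same arrays, so the count is no independent evidence of a direction. In both groups the pools kept 1 order for each probe. At 13 days pool 1 was lowest and pool 3 highest, while in recovery pool 2 was highest. Among the 21 pairs of these probes, 5 share a run of over 20 bases, and the shared runs have 8 to 36 bases. Whether the probes bind each other's RNA was not tested, so they are not taken as 7 independent measurements. The probes are printed as in the array file, coordinates of mm9, in 2 sets, with the run shared by the whole set in capitals. In the first set the shared run has 25 bases and is held by 3 probes of the array.
ENSMUST00000099035, chr9:3038257-3038316: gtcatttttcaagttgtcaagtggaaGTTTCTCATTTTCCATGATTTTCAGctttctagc
ENSMUST00000099046, chr9:3024224-3024283: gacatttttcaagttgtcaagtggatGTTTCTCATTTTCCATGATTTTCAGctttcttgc
ENSMUST00000099050, chr9:3004200-3004259: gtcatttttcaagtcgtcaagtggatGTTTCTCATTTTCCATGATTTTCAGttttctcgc
In the second set the shared run has 27 bases and joins a probe from chromosome 9 with one from chromosome 2.
ENSMUST00000099050, chr9:3003722-3003781: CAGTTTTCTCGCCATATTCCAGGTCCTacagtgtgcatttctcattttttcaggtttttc
ENSMUST00000099683, chr2:98507014-98507072: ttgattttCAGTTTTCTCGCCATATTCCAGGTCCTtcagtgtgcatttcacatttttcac

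The other lower members rested on 1 pool. Shcbp1, a binding partner of the adaptor Shc, had -1.70, -0.05 and -0.17 at 13 days and 0.16, 0.14 and -0.06 in recovery. 1300001I01Rik, named Cluh in RefSeq, had -1.85, -0.03 and -0.01 at 13 days and -0.24, -0.08 and 0.03 in recovery. For both, pool 1 of the 13 days group carried the mean, and the groups overlapped. Cntfr, a receptor for ciliary neurotrophic factor, was a higher member at 0.55, 0.81 and 0.25, with -0.45, 0.20 and 0.03 in recovery. Its second probe showed no such pattern, with a difference of 0.02 against -0.61.

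Dbp, a transcription factor of the output of the circadian clock, had opposite signs in every pool of the 2 groups. At 13 days its log2 ratios were 0.49, 0.20 and 0.48, and in recovery they were -0.28, -0.15 and -0.24. The difference was -0.62 (SE 0.093, limma adjusted p = 0.184), from a ratio of 1.31 at 13 days and one of 0.857 in recovery. A second probe gave 0.56, 0.16 and 0.40 at 13 days and -0.31, -0.20 and -0.26 in recovery, a difference of -0.63 (SE 0.099, adjusted p = 0.211). With the slide as a block both probes passed, with differences of -0.59 and adjusted p of 0.0190 and 0.00994. Over all genes, 2.23% had opposite signs in every pool with the lower value in recovery, and 1.73% with the higher one.

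Other clock genes followed Dbp in part. Per2 had 0.74, 0.38 and 0.19 at 13 days and 0.08, -0.04 and -0.08 in recovery, a difference of -0.45 (SE 0.11, limma adjusted p = 0.931). Per1 had 0.27, 0.19 and 0.25 at 13 days and 0.05, -0.32 and 0.00 in recovery, and its second probe gave a difference of -0.035 against -0.32. Both encode Period proteins, which repress the activators Clock and Arntl. Nr1d1, a nuclear receptor that represses Arntl, had 0.60, -0.05 and 0.08 at 13 days and -0.28, -0.17 and -0.23 in recovery.

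Of 14 measured clock genes, 4 had a lower ratio in recovery at an unadjusted p under 0.05 and 0 a higher one, against 3.62% and 3% of all genes. These 4, Dbp, Per2, Nr1d1 and Per1, were also the genes of the list whose pools did not overlap, against 6.13% of all genes lower and 5.72% higher. At 13 days 8 of the 14 had a positive ratio in all pools, against 14.2% of all genes, and 4 were higher at an unadjusted p under 0.05, against 4.14%. The activators Arntl, Clock and Npas2 had differences of 0.12, 0.01 and -0.02, and Cry1 and Cry2, the partners of the Period proteins, had 0.08 and 0.09. The median difference of the list was -0.11. The promoters of 13 clock genes were at hand from RefSeq (GRCm38.p6), and 5 of the 13 (38.5%) held the E-box CACGTG within 250 bases before the start of the gene, against 6.86% of 27025 genes. The list was made of clock genes, so this share describes the list and not a change between groups. The motif is its own reverse complement, so both strands read the same. The 5 genes with the motif were Bhlhe41, Ciart, Cry1, Per1 and Tef. Of the 4 genes with a lower ratio in recovery only Per1 was among them, and Cry1 had a difference of 0.08. The window of Per1 is shown for this reason, with the E-box in capitals.
Per1, chr11:69098738-69098837 (GRCm38.p6, + strand): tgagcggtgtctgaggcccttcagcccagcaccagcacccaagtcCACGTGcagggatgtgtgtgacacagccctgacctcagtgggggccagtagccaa

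Immediate early genes, which neurons switch on within minutes of activity, included 8 of 16 measured that were positive in all 13-day pools, against 14.2% of all genes. At an unadjusted p under 0.05, 5 of the 16 were higher at 13 days, against 4.14% of all genes. Fos had 0.45, 0.32 and 0.27 at 13 days and 0.09, -0.20 and 0.26 in recovery, without overlap. Dusp1, a phosphatase of MAP kinases, had 0.30, 0.40 and 0.26 at 13 days and 0.20, -0.21 and 0.18 in recovery, also without overlap. Arc, which acts at synapses, had 0.43, 0.57 and 0.93 at 13 days and -0.51, -0.29 and 0.99 in recovery, so that recovery pool 3 was as high as any pool at 13 days. Nr4a1 had the same division, with 0.51 in recovery pool 3 and -0.17 and -0.26 in pools 1 and 2. Only Junb had a difference at an unadjusted p under 0.05, at -0.31, and its groups overlapped. The median difference of the list was -0.10, and 0 of 16 passed in the limma fit or with the slide as a block.

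**Figure D3:**
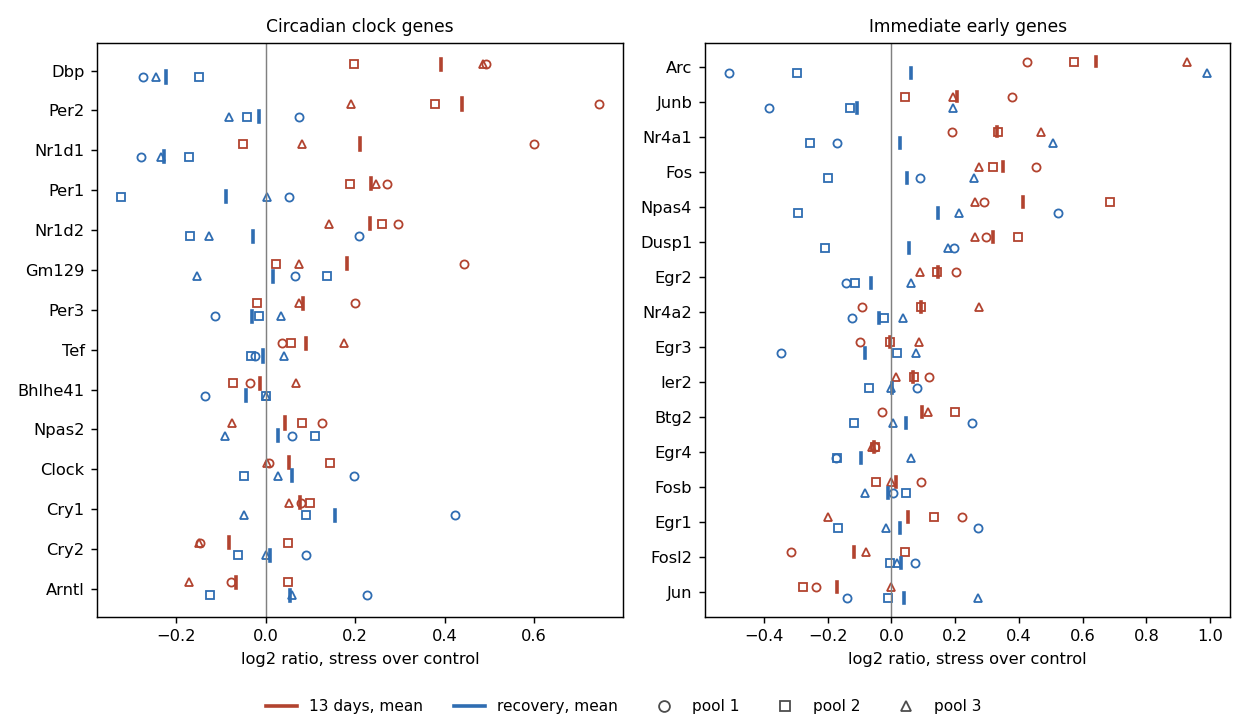
Log2 ratios of stress over control (horizontal axis) in each pool for 14 circadian clock genes and 16 immediate early genes, with symbols for pools 1 to 3, bars for group means, red for 13 days and blue for recovery. Dbp lies between 0.20 and 0.49 at 13 days and between -0.28 and -0.15 in recovery, while Arc at 0.99 in recovery pool 3 lies among the 13-day values.

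Genes at the ends of the ranking by the test of the difference were named by rule, 10 each way, among genes with a symbol. Transcripts known by an identifier alone, such as the ENSMUST transcripts above, were not ranked. At the lower end stood Ap2b1, a subunit of the AP-2 complex, which gathers cargo into clathrin-coated pits at the cell surface. Its log2 ratios were 0.67, 0.40 and 0.26 at 13 days and -0.32, -0.22 and -0.32 in recovery, opposite in sign in every pool. The difference was -0.73 (SE 0.10, limma adjusted p = 0.168, 0.0824 with the slide as a block), a ratio of 1.36 at 13 days beside 0.821 in recovery. It was lower on 5 of 5 slides, from -1.06 to -0.09. With a term for the dye in place of the slide block, Ap2b1 was the 7th probe called, besides the 6 named, at an adjusted p of 0.0259.

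Slc38a2, a sodium-coupled transporter of neutral amino acids, had 0.37, 0.40 and 0.33 at 13 days and -0.03, -0.20 and 0.03 in recovery. The difference was -0.43 (SE 0.070, limma adjusted p = 0.241). Ctgf, a secreted matrix protein and a marker of deep cortical neurons, had 0.35, 0.44 and 0.61 at 13 days and -0.11, -0.08 and 0.03 in recovery, a difference of -0.52 (SE 0.096, adjusted p = 0.416). In both genes each 13-day pool lay above 0.3. Dbp and the 4 hemoglobin genes Beta-s, Hbb-b2, Hbb-b1 and Hba-a1, with Mgp and Alas2, made up the rest of this end.

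At the upper end of the genes with a symbol stood Lrrc8b, a subunit of volume-regulated anion channels, with -0.29, -0.35 and -0.20 at 13 days and 0.23, 0.10 and 0.06 in recovery, opposite in sign in every pool. The difference was 0.41 (SE 0.077, limma adjusted p = 0.445). Hist1h1e, a linker histone, had -0.57, -0.48 and -0.19 at 13 days and -0.02, 0.16 and 0.23 in recovery, a difference of 0.54 (SE 0.11, adjusted p = 0.722), the largest of the 10. Unc80, a part of the sodium leak channel complex, had -0.28, -0.31 and -0.33 at 13 days and -0.04, 0.12 and 0.25 in recovery, a difference of 0.42, and its second probe gave 0.11. Htr2a, the serotonin 2A receptor of cortical neurons, had -0.01, -0.24 and -0.20 at 13 days and 0.33, 0.12 and 0.06 in recovery, a difference of 0.32 (SE 0.080, adjusted p = 0.931). P2rx7, an ATP-gated ion channel, had -0.40, -0.12 and -0.14 at 13 days and 0.17, 0.05 and 0.05 in recovery, and its 2 further probes had smaller differences, both of 0.13.

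The other 5 at this end were Cstad, Otop2, Fam83h, Srrm2 and Ndufv3, with differences from 0.31 to 0.37. For Srrm2, a splicing factor, and Ndufv3, of complex I of the respiratory chain, probes of the same gene did not go the same way. A second probe of Srrm2 had a difference of -0.36 against 0.31, and 2 further probes of Ndufv3 had -0.13 and 0.06 against 0.37. The lowest adjusted p of the 10 in this direction was 0.445, and 0 of them passed with the slide as a block. They were higher in recovery on 5 of 5 slides apart from Srrm2, with 3 of 5.

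**Figure D4:**
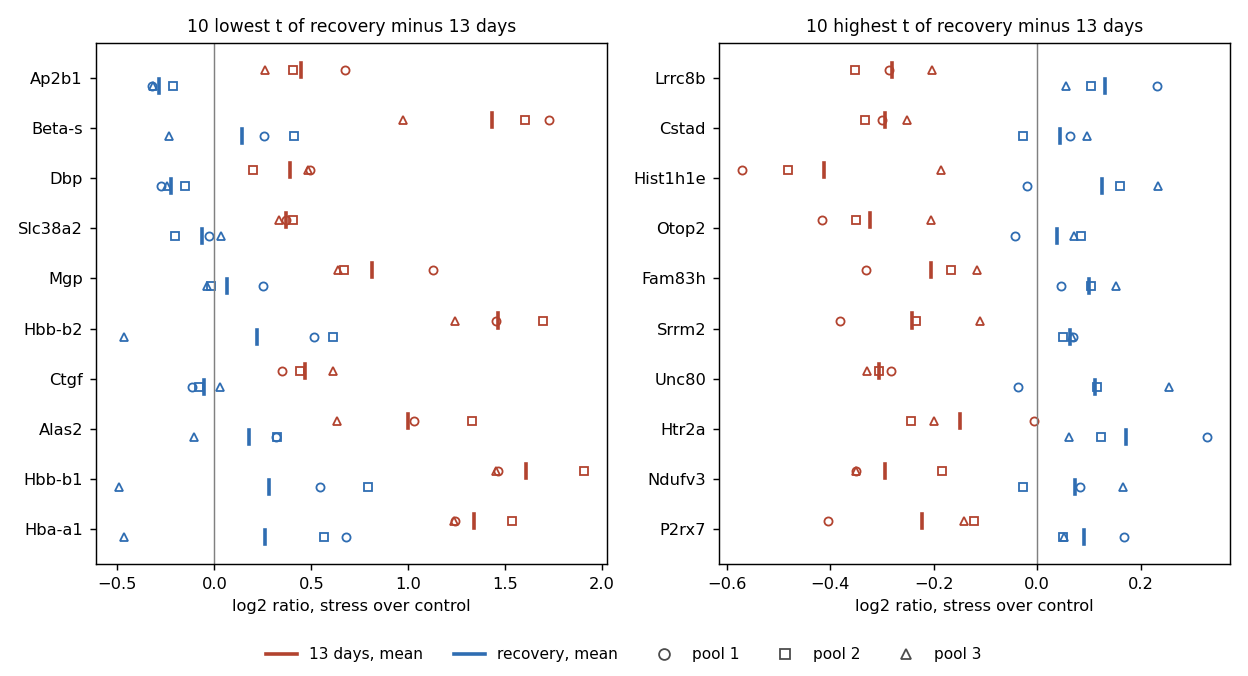
Log2 ratios of stress over control (horizontal axis) in each pool for the 10 genes with the lowest and the 10 with the highest moderated t of the difference, recovery minus 13 days, among genes with a symbol. Symbols are pools 1 to 3, bars are group means, red is 13 days and blue is recovery, and the scales of the panels differ. The pools of the 2 groups do not overlap for any of the 20 genes, which the ranking favours.

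Interferon-induced GTPases made up most of the recovery set. Tgtp2, Gbp4, Igtp and Gbp11 act against intracellular pathogens, and each was below 0 in all 3 recovery pools. Gbp4 had -1.69, -0.51 and -0.36 in recovery, and -2.58, 0.62 and -0.89 at 13 days. Igtp had -1.03, -0.37 and -0.43 in recovery, and -1.78, 0.51 and -0.63 at 13 days. Gbp11 had -1.14, -0.39 and -0.26 in recovery, and at 13 days it had 0.45 in pool 2 and -0.58 in pool 3, with pool 1 lowest. These 3 and Tgtp2 were thus not new in recovery, since pools 1 and 3 were below 0 at both times and 13-day pool 2 alone was above 0. The differences of Gbp4, Igtp and Gbp11 were 0.10 (SE 0.72), 0.02 (SE 0.52) and 0.11 (SE 0.54). For Tgtp2 the difference of -0.25 (SE 0.76) changed sign without 13-day pool 2, to 0.64, and without recovery pool 1, to 0.12.

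The wider list of 20 measured interferon response genes showed this division of pools. Its median log2 ratio was -0.23, 0.56 and -0.11 in 13-day pools 1 to 3, and -0.14, -0.08 and -0.35 in the recovery pools. In recovery 13 of the 20 were below 0 in every pool, against 13.8% of all genes, and 0 of 20 were lower at an unadjusted p under 0.05, against 3%. Ifit3, which blocks translation of viral RNA, had 0.11, 0.55 and -0.02 at 13 days and -0.11, -0.05 and -0.57 in recovery. It was the 1 gene of the list with a difference at an unadjusted p under 0.05, at -0.46. Irf7, a transcription factor of the interferon response, also did not overlap, with 0.03, 0.18 and -0.02 and then -0.09, -0.06 and -0.23. Ifi27l2a was in the 13-day set through pool 2, with 0.30, 1.20 and 0.06, and had 0.13, -0.01 and -0.25 in recovery. Isg15, a ubiquitin-like protein, had -0.21, 1.02 and -0.02 at 13 days and -0.16, -0.09 and -0.73 in recovery.

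The promoters of 15 of the 21 listed interferon genes were at hand from RefSeq, and 12 of the 15 (80%) held GAAANNGAAA, the core of an interferon-stimulated response element, on either strand within 250 bases before the start. Of all 27025 genes 3.46% did. The list was made of interferon response genes, so its share describes the list and not a change between groups. Of the recovery set 2 of the 3 with an entry held the motif, and both are genes of the list. Windows of the latter 2 are shown, each read on the strand of its gene, with the motif in capitals.
Tgtp2, chr11:49064228-49064327 (GRCm38.p6, - strand): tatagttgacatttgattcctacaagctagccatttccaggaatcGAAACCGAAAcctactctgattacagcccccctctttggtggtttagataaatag
Igtp, chr11:58199456-58199555 (GRCm38.p6, + strand): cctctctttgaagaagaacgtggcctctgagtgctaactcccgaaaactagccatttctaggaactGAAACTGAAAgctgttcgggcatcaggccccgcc

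Antigen presentation genes lay below 0 in recovery as well. Of 10 measured, 8 were below 0 in every recovery pool, against 13.8% of all genes, and 2 were lower in recovery against 0 at an unadjusted p under 0.05, against 3%. H2-T23, a nonclassical class I molecule, had -0.10, 0.21 and -0.06 at 13 days and -0.42, -0.32 and -0.20 in recovery, without overlap. Its difference was -0.33 (SE 0.085, limma adjusted p = 0.960). H2-D1, a classical class I molecule, had -0.16, 0.13 and -0.23 at 13 days and -0.66, -0.34 and -0.14 in recovery, a difference of -0.29 with groups that overlapped. H2-K1 and B2m, the other class I chains, overlapped too, with -0.84, 0.37 and -0.23 and then -0.61, -0.41 and -0.0020 for H2-K1. The median difference of the list was -0.09, and GAAANNGAAA was found before 2 of 8 genes (25%). As in the interferon list, 13-day pool 2 had the highest median of its group, 0.18 against -0.26 in pool 1 and -0.22 in pool 3.

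**Figure D5:**
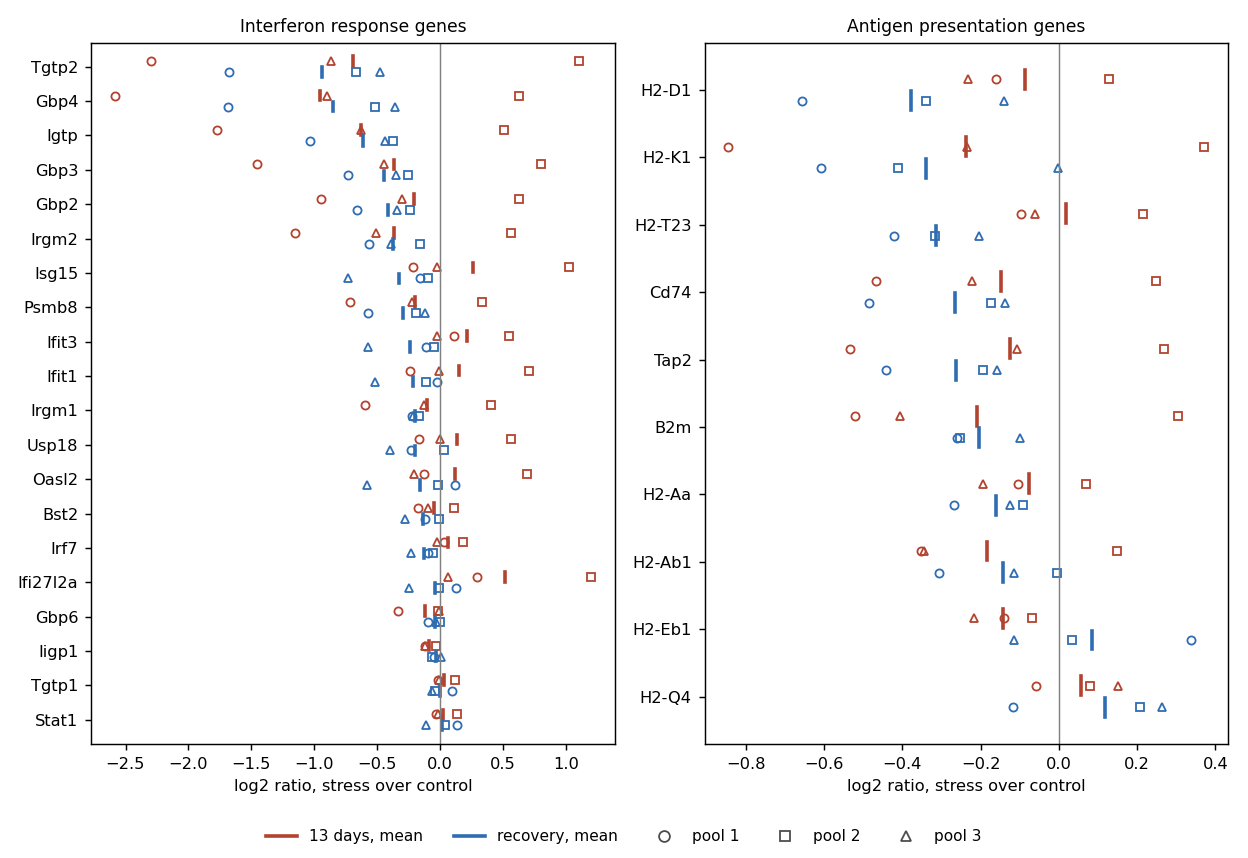
Log2 ratios of stress over control (horizontal axis) in each pool for 20 interferon response genes and 10 antigen presentation genes, sorted by the recovery mean. Symbols are pools 1 to 3, bars are group means, red is 13 days and blue is recovery, and the scales of the panels differ. For Tgtp2, 13-day pools 1 and 3 lie at -2.30 and -0.87 and pool 2 above 0, while the recovery pools run from -1.68 to -0.48.

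By the rule, only Chmp4b appeared in recovery alone. It encodes a subunit of the ESCRT-III complex, which severs membranes. Its log2 ratios were 0.86, -0.03 and -0.09 at 13 days and -0.13, -0.39 and -1.08 in recovery, so the mean at 13 days, 0.24, was just under the limit of 0.25. The difference was -0.78 (SE 0.24, limma adjusted p = 0.995). Both further probes had smaller differences, -0.25 and -0.29, and lay below 0 in each recovery pool, with pool 3 lowest at -0.46 and -0.40. Timp1, an inhibitor of matrix metalloproteinases, had 0.44, 0.43 and 0.26 at 13 days and -2.93, 0.01 and 0.06 in recovery. Its recovery mean of -0.95 did not count as a change of 1 sign, since pool 1 alone was far from 0.

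Injury, hypoxia and heat shock lists each had 3 genes with a lower ratio in recovery at an unadjusted p under 0.05 and 0 with a higher one, against 3.62% and 3% of all genes. In the injury list the 3 were Vim, Cntfr, whose second probe differed as given above, and Timp1, whose recovery mean rested on pool 1. Vim, an intermediate filament of reactive glia and vessels, had 0.23, 0.25 and 0.24 at 13 days and 0.03, 0.02 and 0.03 in recovery, with a difference of -0.21 (SE 0.070, limma adjusted p = 0.995). Adm, a vasodilator peptide induced by hypoxia, had 0.29, 0.22 and 0.17 at 13 days and 0.09, 0.03 and -0.02 in recovery. Dnajb1, a cochaperone of Hsp70, had 0.11, 0.15 and 0.08 at 13 days and -0.17, 0.01 and -0.15 in recovery. Ndrg1, of the hypoxia list, had 0.11, 0.12 and 0.09 at 13 days and -0.14, -0.21 and -0.02 in recovery. Vim, Adm, Dnajb1 and Ndrg1 did not overlap between groups. In the 3 lists, 4 of 12, 2 of 9 and 2 of 11 did not overlap and were lower in recovery, against 6.13% of all genes. The remaining hypoxia gene, Vegfa, had a difference of -0.23 with groups that overlapped, and its second probe gave 0.05. Counts of members with a lower ratio were 3 of 12, 3 of 9 and 3 of 11, and the medians of the lists were -0.20, -0.10 and 0.02. With the mean of all probes of a gene, the heat shock median turned to -0.051 and the hypoxia median was -0.062.

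Among 11 measured astrocyte genes, 0 had a lower and 2 a higher ratio in recovery at an unadjusted p under 0.05, against 3.62% and 3% of all genes. For 3 of the 11 the recovery pools lay above all 13-day pools, against 5.72% of all genes, and the median difference was 0.09. Aqp4, the water channel of astrocyte endfeet, had -0.26, -0.41 and -0.20 at 13 days and -0.07, 0.15 and 0.09 in recovery, a difference of 0.35 (SE 0.11, limma adjusted p = 0.995), and its second probe gave 0.22. Slc1a2, the glutamate transporter, had -0.18, -0.43 and -0.32 at 13 days and -0.11, 0.02 and 0.10 in recovery, but its 3 probes disagreed, with differences of 0.32, -0.23 and 0.17. Aldh1l1 had -0.02, -0.14 and -0.28 at 13 days and 0.15, -0.02 and -0.01 in recovery. Aldh1a3, an enzyme of retinoic acid synthesis outside this list, had -0.61, -0.42 and -0.22 at 13 days and 0.11, 0.03 and -0.14 in recovery, a difference of 0.42. Pdk4, of the glucocorticoid-induced list, had -0.22, -0.12 and -0.09 at 13 days and 0.14, 0.04 and 0.01 in recovery. Of the 15 genes of that list, 1 had a higher ratio in recovery at an unadjusted p under 0.05, Pdk4, and 1 a lower one, Per1, and its median difference was -0.02.

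The list of study-named genes held 17, of which 14 were members. Among the 14, the study names Tgtp2 for the recovery group, and its text does not name Lrrc49. Of the 14, 11 had a lower ratio in recovery at an unadjusted p under 0.05, against 3.62% of all genes. The 11 include Lrrc49 at -0.28, while its probe called at 13 days went the other way, at 0.53. They also include Cntfr, whose second probe had a difference of 0.02, and Timp1, whose recovery mean rested on pool 1. For 9 of the 14, lower in recovery, the pools did not overlap, against 6.13% of all genes. With the slide as a block 4 were called, against 0.0152% of all probes. Since the list was drawn from results of these same arrays, the counts are no independent evidence of a direction. The median log2 ratio of the 14 was 0.73 at 13 days and 0.16 in recovery.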

How the data were processed

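The authors extracted RNA of each mouse separately, pooled equal amounts of 3 mice, labelled the pools with Cy3 or Cy5, hybridised a stress and a control pool on each Agilent 4x44K v2 mouse array and read spots with Agilent Feature Extraction. The deposited scanner files give mean spot intensities and local background intensities without normalization, and a log10 ratio of red over green by Agilent's own method. A deposited value table holds log2 ratios of stress over control that the authors normalized. Per column, the median of these log2 ratios lay between -0.014 and 0.028, their direction was found to be turned already, and their r with the ratios computed here was 0.785 to 0.974. Probe positions are of mm9.

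Processing of the intensities used limma 3.58.1 (R 4.3.3, with data.table version 1.17.8, jsonlite 2.0.0 and statmod 1.5.0) and took these steps: normexp background correction with an offset of 50, loess within arrays with control and outlier spots at weight 0, and Aquantile between arrays. Spots (43020) were averaged to 39429 probes. Log2 ratios of dye swaps were turned and averaged, so that each pool is 1 sample. One coefficient per time point was fitted over the 12 pools with lmFit and eBayes (8 residual and 4.86 prior degrees of freedom), and recovery minus 13 days was a contrast. Adjusted p-values are Benjamini-Hochberg over 39429 probes, and a call needs an adjusted p under 0.05 and a log2 value over 0.5. All 4 time points share 1 variance per probe. Pools are of different mice, and p-values measure the spread between pools of 3.

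Genes were named by rule: all called probes, the list of study-named genes, members that appeared only in recovery, and up to 4 genes per list by p. The rule also took the 10 highest and 10 lowest genes with a symbol by moderated t. These had a difference over 0.3 of 1 sign in 3 pool numbers. Of the probes, 27521 were matched to a RefSeq symbol. One probe stood for a gene, the one the study lists or else the brightest. The 28 lists were red cells (hemoglobin chains, other genes), repeat-related transcripts, study-named genes, clock, immediate early, interferon, antigen presentation, injury, hypoxia, heat shock, glucocorticoid-induced, cholesterol, retinoic acid and 14 lists of cell types. Members and lists were chosen with earlier results of these data known. On data simulated for this contrast over 39429 probes, 9 of 25 probes changed by 0.5 were called, 24 of 25 at 0.75, 24 of 25 at 1 and 23 of 25 at 1.5, with 2 false calls. All sizes were simulated together, which loosens the adjusted threshold, so the counts can overstate the power where few probes change.

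On the 10 arrays, the share of probes well above background ran from 70.5% to 73.9%, with 0.314% to 0.730% outlier spots and 0 saturated ones. The green channel had median signals of 88.7 to 142 against a background of 25 to 29, and the red channel 153 to 233 against 38.5 to 41. Original and turned dye-swap arrays of a pool correlated at -0.39 and -0.15 at 13 days and -0.26 and -0.16 in recovery. These values were all negative, so the orientations of a pool did not, as a whole, repeat each other's ratios. Pool 1 had 1 orientation, so a dye effect was not averaged out of its ratios. The 13-day and recovery sets, the calls within a group and the sign counts rest in part on pool 1. Over member probes, its standard deviation was 0.169 at 13 days and 0.181 in recovery, on 1 array each. Pools 2 and 3, averaged over 2 arrays, had 0.0756 to 0.111. The number of arrays limits the precision.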

Additional observations from a re-analysis of the deposited data

Results flagged for a closer look

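The change from 13 days of stress to recovery differed from 0 by the test with the slide as a block for Hbb-b1 at -1.33, Hbb-b2 at -1.24, Hba-a1 at -1.08, Mgp at -0.75 and Dbp at -0.62 on the log2 scale of the fit over pools. That test counts the arrays of a dye swap nearly as separate samples, and in the fit over pools none of the 5 passed (limma adjusted p 0.589, 0.416, 0.705, 0.416 and 0.184). For the first 4 of these genes recovery pools did not all lie on the other side of 0.

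Among the named genes, opposite signs in every pool of the 2 groups with a difference over 0.3 in size were found for Dbp, 6 further genes and 1 transcript. Among the latter 7, the difference of Ap2b1 alone was called in any setting run, the one with the dye term. Ap2b1 had a difference of -0.73. Lrrc8b had 0.41, Htr2a 0.32, P2rx7 0.31, Fam83h 0.31 and Srrm2 0.31, and the transcript ENSMUST00000099035 had 0.99. Beside these stand the 2.23% and 1.73% of all genes with opposite signs in every pool at any size.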

How the results depend on the processing

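The difference between recovery and 13 days gave 2 calls with the replicate block (Mgp and Beta-s, lowest adjusted p 0.00816), 6 with the slide as a block, 7 with a dye term and 4 with the slide as a block in pools 2 and 3 alone, which was chosen after seeing the data. All the other settings gave 0, apart from leaving out a pool (0 to 1). For the replicate block, same-numbered pools came from different mice but shared slides and the scan day, and their deviations correlated at 0.25, -0.11 and 0.46 in pools 1 to 3. Calls at 13 days, 9 here, were 0 with a normexp offset of 0, median centring, the authors' value table, eBayes with trend and robust or only the 6 pools, 3 with Agilent's log ratio, and 0 to 15 without a pool. Calls in recovery were 0 to 2 without a pool.

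With an offset of 0, the 13-day set held 43 probes (34 returned, 7 partly kept, 2 turned) and the recovery set 17 (8 only there). In the authors' value table these were 41 (32, 7 and 2) and 15 (5). At a size of 0.3 they were 83 (72 returned, 2 persisted, 5 turned) and 40 (28 only there), and at 0.75, 11 returned and the recovery set held 2 (0 only there). Without a pool, the 13-day set held 21 to 48, with 10 to 30 returned, 1 to 12 partly kept, 0 to 4 persisted and 0 to 7 turned, and the recovery set 4 to 35, with 0 to 26 only there. A rule of 1 sign is looser over 2 pools.

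Of 78 named probes, 71 kept the direction of their difference in every setting run, and of 1548 values 1513 kept direction and side of the threshold, 18 newly passed it and 17 changed sign. BC006965 was 0.029 with median centring, Slc16a10 0.021 with Agilent's log ratio, and Acta2 0.034, Gp1bb 0.091 and Abcc9 -0.0066 with the slide block in pools 2 and 3. Without a pool, Acta2 ranged from -0.23 to 0.034, Gp1bb from -0.13 to 0.091, Ppbp from -0.18 to 0.0021, BC006965 from -0.21 to 0.13, Abcc9 from -0.030 to 0.20 and Tgtp2 from -1.06 to 0.64. With the mean of all probes of a gene, list medians were -0.055 for monocytes and border macrophages, 0.076 for oligodendrocyte precursors, -0.051 for heat shock (0.019 with 1 probe) and -0.062 for hypoxia (-0.10). The cause of these shifts was not tested. Where an arm was left with 2 pools, spread was taken over all groups.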

Other observations

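Among cell types not described above, border macrophage and microglial genes had few differences. C1qa, a complement gene of microglia, had log2 ratios of 0.20, 0.04 and 0.06 at 13 days and -0.21, -0.04 and -0.03 in recovery. Lyz2, lysozyme of myeloid cells, had 0.10, 0.08 and 0.01 at 13 days and -0.47, -0.04 and -0.05 in recovery. The microglia list had 1 of 11 members and the monocyte list 1 of 7 with a lower ratio in recovery at an unadjusted p under 0.05. Camp, an antimicrobial peptide of neutrophils, had -0.18, 0.39 and -0.04 at 13 days and 0.77, 0.86 and -0.27 in recovery, with pool 3 lowest as for the hemoglobin chains. The 6 measured neutrophil genes had median log2 ratios of 0.56, 0.53 and -0.31 in recovery pools 1 to 3.

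Among neuronal markers, Cux2 of upper cortical layers had a difference of 0.17 and Camk2a of excitatory neurons 0.28, while Bcl11b of deep layers had -0.20. Second probes gave 0.034 for Cux2, 0.27 for Camk2a and -0.12 for Bcl11b. Of the 11 excitatory neuron and layer genes, 2 had a lower and 2 a higher ratio in recovery at an unadjusted p under 0.05. For interneuron and neuropeptide genes these counts were 0 and 0 of 14, with Pvalb at -0.17 and Crh at 0.19. Oligodendrocyte and myelin genes had 1 lower of 12, Ugt8a at -0.26. Oligodendrocyte precursors had 0 of 5, pericytes and smooth muscle 0 of 8 and platelets 0 of 4, and endothelium had 1 lower of 11, Pecam1 at -0.16. Cholesterol synthesis had 1 higher of 13, Insig1 at 0.15, retinoic acid 1 higher of 10, Aldh1a3, and the olfactory bulb 1 lower and 1 higher of 11. Over all genes these shares were 3.62% lower and 3% higher.

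For Lrrc49, the probe called at 13 days was well above background on 7 of 10 arrays and so was no member. It had -0.74, -0.68 and -0.34 at 13 days and -0.12, 0.00 and -0.05 in recovery, a difference of 0.53. A member probe of the same gene had 0.34, 0.29 and 0.15 at 13 days and 0.20, -0.19 and -0.09 in recovery, a difference of -0.28, so the probes opposed each other.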
